A study of Mus musculus with 6 samples.

Results

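The genes described are 10 members of the YAP and TEAD pathway, taken by symbol from the 35275 gene IDs of a read count table: the coactivators Yap1 and Wwtr1, the DNA-binding factors Tead1 to Tead4, and the target genes Ccn1, Ccn2, Ankrd1 and Amotl2. All 10 were found under their current symbols, and Ccn1 and Ccn2 were formerly named Cyr61 and Ctgf. The RNA came from Melb-a cells, an immortal line of C57BL/6J mouse melanoblasts, in 6 libraries from 3 independent samples per treatment. For 48 h the cells were kept with 10 µM iBRD9, an inhibitor of the bromodomain of the SWI/SNF subunit BRD9 (3 libraries), or with its vehicle DMSO (3 libraries). All 6 samples had been moved from growth medium to DMEM with 10% serum, 2 nM of the melanocyte stimulating hormone analog NDP-alpha MSH and 200 nM phorbol-myristate-acetate, which activates protein kinase C. There was 1 cell line, 1 compound and 1 dose.

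YAP, encoded by Yap1, and TAZ, encoded by Wwtr1, are transcriptional coactivators that bind no DNA themselves and act mostly through the TEAD factors. In the Hippo pathway the kinase MST activates the kinase LATS, and LATS phosphorylates YAP and TAZ, which holds them in the cytoplasm. Much of their control is therefore on the protein and is not seen in RNA. Ccn1, Ccn2, Ankrd1 and Amotl2 are among the genes most often read as a sign of YAP and TAZ activity, and YAP and TAZ are known in melanocyte biology for their part in melanoma invasion.

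TEAD factors bind the hexamer GGAATG, written CATTCC on the opposite strand. Of the 10 members, 7 were matched by symbol in a RefSeq table of GRCm38.p6 windows that run from 250 bases before to 50 bases after a start site. The hexamer occurred on either strand in at least 1 window of 6 of these 7 genes, and in 16.6% of the 27025 genes in that table. Per window, 14.7% of 32851 held it. The windows of Yap1, Wwtr1, Ccn1, Ankrd1 and Amotl2 are shown because these are the coactivators and the targets whose RNA is compared next. The capitals mark the hexamer on either strand, and each sequence reads 5′ to 3′ on the strand of its gene.
Yap1, chr9:8004547-8004846, minus strand: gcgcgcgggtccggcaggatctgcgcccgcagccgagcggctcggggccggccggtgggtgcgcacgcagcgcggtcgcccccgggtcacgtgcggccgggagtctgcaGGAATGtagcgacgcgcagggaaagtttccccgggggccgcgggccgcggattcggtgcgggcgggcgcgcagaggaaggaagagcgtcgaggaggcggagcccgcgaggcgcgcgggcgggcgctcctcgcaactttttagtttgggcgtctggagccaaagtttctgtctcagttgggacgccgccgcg
Wwtr1, chr3:57575861-57576160, minus strand: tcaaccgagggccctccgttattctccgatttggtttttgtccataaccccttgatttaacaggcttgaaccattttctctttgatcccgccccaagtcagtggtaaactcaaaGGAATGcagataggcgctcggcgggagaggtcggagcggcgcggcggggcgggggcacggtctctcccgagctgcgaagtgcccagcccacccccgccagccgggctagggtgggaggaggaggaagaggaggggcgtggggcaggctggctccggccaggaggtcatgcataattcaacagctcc
Ccn1, chr3:145649936-145650235, minus strand: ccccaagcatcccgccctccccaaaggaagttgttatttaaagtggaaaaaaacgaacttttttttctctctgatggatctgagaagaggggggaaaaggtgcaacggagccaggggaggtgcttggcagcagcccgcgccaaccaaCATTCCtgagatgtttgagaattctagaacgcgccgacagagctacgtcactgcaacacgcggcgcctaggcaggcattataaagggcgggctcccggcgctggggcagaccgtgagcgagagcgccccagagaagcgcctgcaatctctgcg
Ankrd1, chr19:36119795-36120094, minus strand: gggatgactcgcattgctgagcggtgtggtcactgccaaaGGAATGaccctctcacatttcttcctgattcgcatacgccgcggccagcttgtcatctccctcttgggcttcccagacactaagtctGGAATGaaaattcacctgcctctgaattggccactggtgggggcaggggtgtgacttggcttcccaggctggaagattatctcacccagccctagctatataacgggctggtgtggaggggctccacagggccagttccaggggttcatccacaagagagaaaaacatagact
Amotl2, chr9:102717554-102717853, plus strand: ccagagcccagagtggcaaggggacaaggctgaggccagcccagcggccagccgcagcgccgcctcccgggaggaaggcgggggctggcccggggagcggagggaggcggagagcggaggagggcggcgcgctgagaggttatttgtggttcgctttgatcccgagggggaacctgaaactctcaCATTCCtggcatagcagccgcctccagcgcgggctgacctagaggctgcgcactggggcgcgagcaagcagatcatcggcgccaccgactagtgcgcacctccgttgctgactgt
The hexamer began 141 bases before the start of Yap1, 136 before that of Wwtr1, 103 before that of Ccn1, 210 and 123 before that of Ankrd1 and 65 before that of Amotl2. The first of the Tead3 windows also held it, 182 bases before the start, and the Tead2 window did not. Neither the AP-1 motif TGANTCA nor the SRF motif known as the CArG box was found in the windows of the 7 genes (0 of 7 for each), against 8.97% and 1.81% of all genes in the table. These matches are letters in a window and were not tested as binding sites. For Ccn1, unlike the other printed windows, the bases at the start site were not found in a transcript under that symbol.

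In cells given iBRD9 both coactivator transcripts were lower than with DMSO, Tead1 was higher by 1.81-fold, and the target Ccn1 was higher by 1.68-fold while Ccn2 and Ankrd1 were close to absent in both groups. Of the 8 members with enough counts to be tested, 3 rose (Tead1, Tead3 and Ccn1), 3 fell (Yap1, Wwtr1 and Tead2) and 2 did not pass (Tead4 and Amotl2). Rises and falls are changes that passed edgeR's quasi-likelihood test at an adjusted p under 0.05 over all 13602 tested genes. That threshold called 60.7% of all tested genes, 29.8% higher and 30.9% lower, so the count of called members is close to the background. For 6 of the 8 members every iBRD9 library lay on the same side of every DMSO library, as it did for 68.0% of all tested genes. With all 6 libraries no tested member changed by 2-fold or more (0 of 8), against 14.9% of all tested genes that were called and changed that much. The median log2 fold change of the tested members was -0.07, and that of all tested genes was 0.007.

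**Figure D1:**
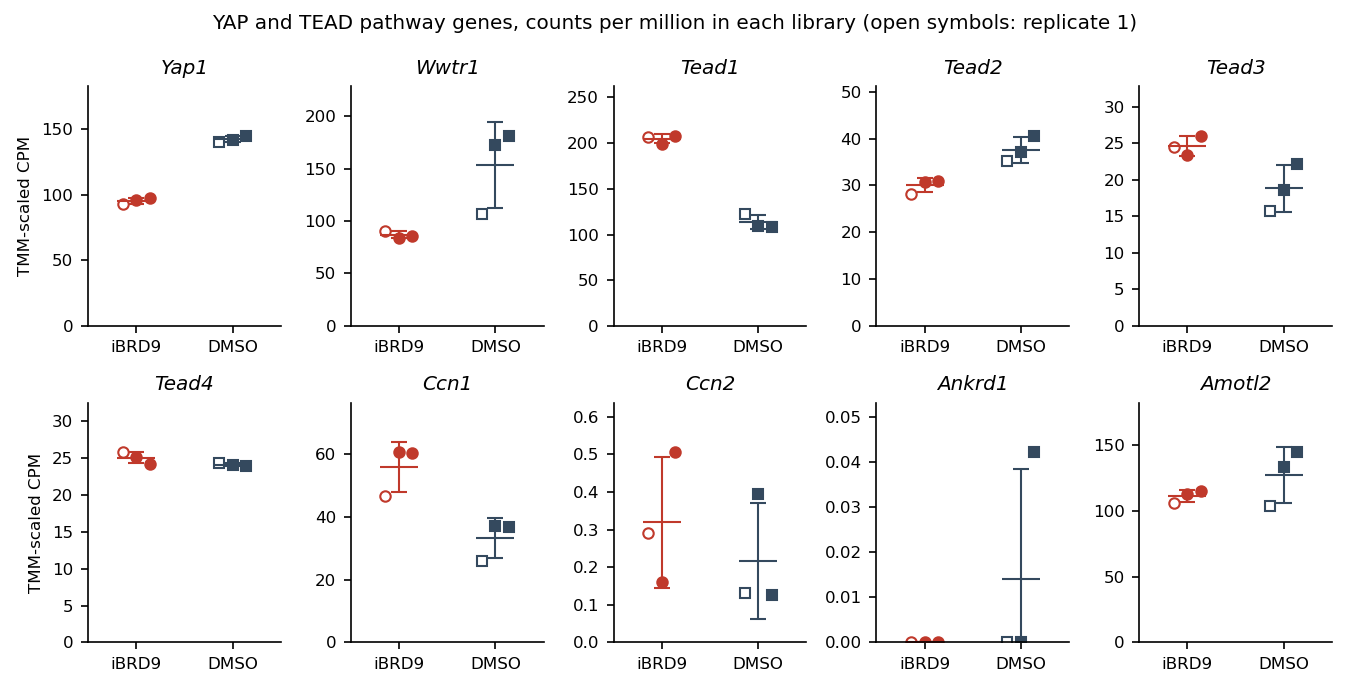
Levels of the 10 members in TMM-scaled CPM (counts per 1000000 counts of a library) in each library, iBRD9 left of DMSO, with the mean and SD of 3 libraries and replicate 1 as an open symbol. Yap1, Wwtr1 and Tead2 lie lower in all 3 iBRD9 libraries than in any DMSO library, Tead1, Tead3 and Ccn1 lie higher, and the axes of Ccn2 and Ankrd1 reach less than 1 CPM.

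The libraries held 22846391 to 29680952 counts. All 7 listed melanocyte markers, from Mitf to Mlana, had enough counts to be tested. Their summed level was 14700 to 16200 CPM in the iBRD9 libraries and 15300 to 17600 CPM in the DMSO libraries (counts per 1000000 counts, after scaling by TMM). Of them 1 rose, Dct (log2 fold change 0.31), and 4 fell, Tyr (-2.61), Sox10 (-0.92), Tyrp1 (-0.66) and Mlana (-0.62). The 7 fibroblast markers summed to 125 to 137 CPM with iBRD9 and 52.2 to 64.6 CPM with DMSO, most of it from the proteoglycan gene Dcn (120 and 51.2 CPM on average), with Thy1 at 0 and 0.0281 CPM and Col3a1 at 0.126 and 0.0426 CPM. Of the fibroblast markers 5 were tested and 2 rose, Dcn (log2 fold change 1.23) and Col1a1 (2.36, at 3.52 CPM with iBRD9 and 0.679 CPM with DMSO). The 4 endothelial markers summed to 3.96 to 5.83 CPM with iBRD9 and 1.17 to 1.48 CPM with DMSO, and Kdr, the 1 that was tested, rose (log2 fold change 2.07). The 6 keratinocyte markers summed to 3.64 to 4.35 CPM with iBRD9 and 3.5 to 4.21 CPM with DMSO, nearly all from Krt10, while Krt5 and Krt1 had no count in any library (0). The 4 immune markers summed to 3.84 to 4.61 CPM with iBRD9 and 5.69 to 7.49 CPM with DMSO, nearly all from Cd68, which fell (log2 fold change -0.69, edgeR adjusted p = 0.00399), while Ptprc and Cd3e had no count in any library (0). The 4 smooth muscle markers summed to 10.5 to 12.1 CPM with iBRD9 and 6.42 to 12.6 CPM with DMSO, and the 3 that were tested did not pass. Fibroblasts express YAP targets as well, and the part of these marker shifts in the values that follow was not tested. Among the DMSO libraries replicate 1 differed most from its group. The values of Wwtr1, Tead3, Ccn1 and Amotl2, the members that moved most without it, are therefore given both ways. Values of other named genes are mostly given with all 6 libraries alone. Replicate 1 was singled out from these same data, and leaving it out can narrow the DMSO spread. Adjusted p values without it can therefore read too small.

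Yap1 (ENSMUSG00000053110), the gene of the coactivator YAP, had 93.1, 95.8 and 97.6 CPM in the iBRD9 libraries and 140, 142 and 145 CPM in the DMSO libraries. The 2 groups were tight and far apart, and DMSO replicate 1 did not stand out for this gene. The log2 fold change was -0.58 (SE 0.052, edgeR adjusted p = 5.29e-05), which is 0.670 times the DMSO level. Changes larger than this in either direction were seen in 34.5% of all tested genes.

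Wwtr1 (ENSMUSG00000027803), the gene of the coactivator TAZ, had 90.5, 84.1 and 85.8 CPM with iBRD9 and 107, 172 and 181 CPM with DMSO. All 3 iBRD9 values were below the lowest DMSO value, but that lowest value, from DMSO replicate 1, was much nearer to iBRD9 than to its own group. The log2 fold change was -0.82 (SE 0.17, edgeR adjusted p = 0.00363), and -1.03 without DMSO replicate 1 (adjusted p = 1.47e-15, with 1.47e-15 to 0.0492 over all fits). On the log2 scale DMSO replicate 1 lay 70.9% of the way between the mean of the other DMSO libraries and the iBRD9 mean for Wwtr1, and 5.49% of the way for Yap1.

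The Yap1 to Wwtr1 count ratio was 1.03, 1.14 and 1.14 in the iBRD9 libraries and 1.32, 0.824 and 0.800 in the DMSO libraries. Wwtr1 therefore had more counts than Yap1 in DMSO replicates 2 and 3 and fewer in DMSO replicate 1 and in all iBRD9 libraries, and the groups overlapped. The genes whose profile over the 6 libraries was nearest to that of Yap1 were Etv6, an ETS family repressor, Gspt1, a translation termination factor, and Samd14. Their root mean square differences from Yap1 in centred log2 CPM were 0.0293, 0.0293 and 0.0317. This likeness was ranked over 13602 tested genes and mostly follows the treatment difference, with log2 fold changes of -0.54, -0.61 and -0.56.

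The 4 TEAD genes went different ways. Tead1 (ENSMUSG00000055320), a broadly expressed TEAD factor that mouse embryos need for the heart, had 207, 199.6 and 208 CPM with iBRD9 and 122, 109 and 108 CPM with DMSO. Its groups were well separated, with a log2 fold change of 0.85 (SE 0.064, edgeR adjusted p = 2.14e-05), the largest of the tested members with all 6 libraries. In all, 19.9% of tested genes changed by more than Tead1 did.

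Tead2 (ENSMUSG00000030796), best known for its role in the early embryo together with Tead1, had 28.3, 30.8 and 31.0 CPM with iBRD9 and 35.2, 37.1 and 40.7 CPM with DMSO. The groups did not overlap, though the gap between them was about as wide as the spread within each. The log2 fold change was -0.33 (SE 0.079, edgeR adjusted p = 0.00699).

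Tead3 (ENSMUSG00000002249), known from placenta, had 24.5, 23.4 and 26.1 CPM with iBRD9 and 15.8, 18.7 and 22.2 CPM with DMSO. The highest DMSO library came close to the lowest iBRD9 library. The log2 fold change was 0.38 (SE 0.12, edgeR adjusted p = 0.0239), and the call was lost without iBRD9 replicate 1 (0.39, adjusted p = 0.0701), without iBRD9 replicate 3 (0.34, 0.0895) or without DMSO replicate 2 (0.37, 0.0728). Without DMSO replicate 1 the value was 0.26 and passed (adjusted p = 0.00628). All fits of Tead3 together spanned adjusted p values of 0.00458 to 0.0895.

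Tead4 (ENSMUSG00000030353), which in mouse specifies the trophectoderm, had 25.8, 25.1 and 24.2 CPM with iBRD9 and 24.4, 24.1 and 23.9 CPM with DMSO. These values overlapped and did not pass the test (log2 fold change 0.06, edgeR adjusted p = 0.494), with a 95% confidence interval of -0.10 to 0.21.

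Set against gene length, which is needed to compare levels between genes, Tead1 made up a larger share of the TEAD transcripts with iBRD9. Per kilobase of annotated exon it took 47.7%, 46.5% and 47.3% of the summed TEAD level in the iBRD9 libraries and 35.4%, 31.9% and 30.2% in the DMSO libraries. Tead2 took 19.6% ± 0.964 with iBRD9 and 30.5% ± 1.65 with DMSO (SD, n = 3 each). Tead4 took 21.8% ± 0.850 with iBRD9 and 26.1% ± 0.839 with DMSO, and Tead3 11.5% ± 0.503 and 10.9% ± 1.64. The Tead1 transcript has a long untranslated end, so its share depends on the length used: per coding length it was 72.6% ± 0.451 with iBRD9 and 59.1% ± 3.14 with DMSO. Under both lengths Tead1 was higher and Tead2 lower as a share in every iBRD9 library than in any DMSO library. These shares describe the libraries and carry no test.

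**Figure D2:**
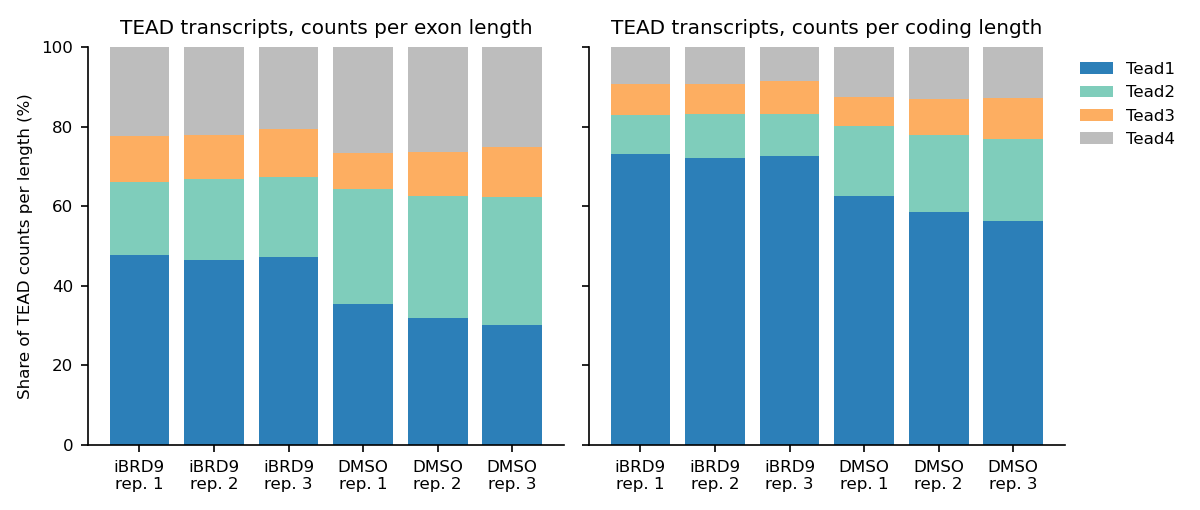
Stacked shares in percent of Tead1 to Tead4 in each library, computed from counts per exon length (left panel) and per coding length (right panel), with the 3 iBRD9 libraries left of the 3 DMSO libraries. The Tead1 segment is 46.5% to 47.7% with iBRD9 and 30.2% to 35.4% with DMSO in the left panel.

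Among the target genes, Ccn1 (ENSMUSG00000028195), which encodes a secreted matrix protein that binds integrins, had 46.7, 60.6 and 60.3 CPM with iBRD9 and 25.8, 37.0 and 36.7 CPM with DMSO. In each group replicate 1 was the lowest library, and the lowest iBRD9 value was above every DMSO value. The log2 fold change was 0.75 (SE 0.15, edgeR adjusted p = 0.00314), with a 95% confidence interval of 0.40 to 1.10. It was 0.58 without DMSO replicate 1 (adjusted p = 0.00453, with 1.32e-05 to 0.0175 over all fits).

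Amotl2 (ENSMUSG00000032531), an angiomotin family gene whose protein binds YAP and which is itself a YAP target, had 106, 113 and 115 CPM with iBRD9 and 104, 133 and 144 CPM with DMSO. DMSO replicate 1 was below all iBRD9 libraries and the other DMSO libraries were above them, so the groups overlapped. The log2 fold change of -0.19 did not pass (edgeR adjusted p = 0.166), with a 95% confidence interval of -0.45 to 0.06. Without DMSO replicate 1 it was -0.33 and passed (adjusted p = 1.49e-06), which made 4 members lower and 3 higher where 74.0% of all tested genes were called. Its adjusted p ran up to 0.494 in the other fits.

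Ccn2 (ENSMUSG00000019997), the connective tissue growth factor gene, had 0.292, 0.16 and 0.507 CPM with iBRD9 and 0.13, 0.394 and 0.126 CPM with DMSO. These were 25 counts in all with iBRD9 (95% exact Poisson interval 16.2 to 36.9) and 16 with DMSO (9.15 to 26.0), too few to enter the test, and the intervals overlap. When no filter on low counts was set, its log2 fold change was 0.50 (95% confidence interval -0.72 to 1.73, edgeR adjusted p = 0.516). Ankrd1 (ENSMUSG00000024803), a muscle ankyrin repeat gene, had 0 counts in the iBRD9 libraries and 1 count in the DMSO libraries. With 3 counts over the 3 iBRD9 libraries taken as the limit, a count of 0 allows up to 0.0378 CPM, so no fold change is given. The 95% exact Poisson interval, as used for Ccn2, runs from 0 to 3.69 counts here. These intervals and limits cover counting error only.

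In levels per kilobase of exon with DMSO, the order was Wwtr1 (32.1 ± 8.53), Amotl2 (20.2 ± 3.36), Ccn1 (16.4 ± 3.17), Yap1 (15.4 ± 0.270), Tead1 (8.36 ± 0.575), Tead2 (7.86 ± 0.585), Tead4 (6.70 ± 0.0630) and Tead3 (2.81 ± 0.479) CPM per kilobase (SD, n = 3). Libraries of neighbours in that order overlapped for Wwtr1 and Amotl2, for Amotl2 and Ccn1, for Ccn1 and Yap1 and for Tead1 and Tead2. With iBRD9 the order began with Ccn1 (27.7 ± 3.93), then Wwtr1 (18.2 ± 0.698), Amotl2 (17.7 ± 0.733), Tead1 (15.1 ± 0.347) and Yap1 (10.3 ± 0.241) CPM per kilobase, of which only Wwtr1 and Amotl2 had overlapping libraries. Tead1 was thus above Yap1 with iBRD9 and below it with DMSO. Per coding length Tead1 led with iBRD9 (157 ± 3.60), ahead of Wwtr1 (64.0 ± 2.46) and Yap1 (63.9 ± 1.49). With DMSO the Tead1 mean stood below both at 86.7 ± 5.97, against 113 ± 30.05 for Wwtr1 and 95.3 ± 1.67 for Yap1. These values divide all counts of a gene, also those on untranslated exons, by its coding length. That length is 1308 of 13570 exon bases for Tead1, 1356 of 4779 for Wwtr1 and 1495 of 9257 for Yap1. The order between genes thus depends on the length used.

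Genes upstream of YAP changed in both directions. Of 16 tested kinases and scaffolds of the Hippo core and its upstream regulators, 3 rose, 5 fell and 8 did not pass (median log2 fold change -0.11). Over all tested genes 29.8% rose and 30.9% fell, so changes in both directions were common outside this list too. Frmd6, a FERM protein upstream of the kinases, averaged 93.5 ± 5.58 CPM with iBRD9 and 51.5 ± 4.35 CPM with DMSO (SD, n = 3, log2 fold change 0.86). Taok2, of the TAO kinases that activate MST, had 0.75, and Sav1, the scaffold of MST and LATS, had 0.53. Sav1 had 57.2, 61.4 and 59.8 CPM with iBRD9 and 55.9, 35.1 and 33.0 CPM with DMSO. Without DMSO replicate 1 its log2 fold change was 0.79. Its call (edgeR adjusted p = 0.0306) was lost without any 1 library other than DMSO replicate 1 and with no filter on low counts, with an adjusted p of 1.01e-11 to 0.150 over all fits.

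The kinase gene Lats1, which phosphorylates YAP, fell to 232 ± 8.93 CPM with iBRD9, against 279 ± 8.69 CPM with DMSO (log2 fold change -0.26, edgeR adjusted p = 0.00379). Tnik, a MAP4K family kinase gene (-0.32), and Wwc1, the gene of the scaffold KIBRA (-0.30), also fell. The call of Wwc1 was lost without iBRD9 replicate 1 (adjusted p = 0.0576) or replicate 2 (0.0505) and with library size alone (0.108), the highest of its fits, with 0.00101 the lowest. Lats2 stood at 86.3 and 93.1 CPM and did not pass (-0.11, adjusted p = 0.476). In this list 10 genes fell when DMSO replicate 1 was left out, and 3 when iBRD9 replicate 1 or replicate 2 was. Over all tested genes 37% fell without DMSO replicate 1, 26.3% without iBRD9 replicate 1 and 25.9% without iBRD9 replicate 2. With library size as the only scaling, 5 rose and 3 fell, against 36.8% and 24.9% of all tested genes.

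Of 18 tested junction and polarity genes, some of whose products bind YAP, 5 rose, 7 fell and 6 did not pass (median -0.12). Over all tested genes the shares that rose and fell were 29.8% and 30.9%. The angiomotin family, which tethers YAP at junctions, split. Amot had 58.6, 60.8 and 65.6 CPM with iBRD9 and 26.6, 19.9 and 19.9 CPM with DMSO, a log2 fold change of 1.48 (SE 0.12, edgeR adjusted p = 2.86e-05). Amotl1 had 164, 168 and 163 CPM with iBRD9 and 248, 280.1 and 293 CPM with DMSO, a log2 fold change of -0.73 (SE 0.070, edgeR adjusted p = 6.67e-05). Together with Amotl2, the 3 angiomotin genes thus hold 1 that rose, 1 that fell and 1 that did not pass.

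The largest rise of these lists among genes above the low-level cutoff was in Fat4, an atypical cadherin gene whose fly relative Fat acts upstream of Hippo. It had 58.9, 55.8 and 65.2 CPM with iBRD9 and 14.4, 13.4 and 15.1 CPM with DMSO, which is 4.19-fold (log2 fold change 2.07, SE 0.086, edgeR adjusted p = 2.16e-06). Its relative Fat1 rose by less (0.59). Pard3 (-0.60, and -0.78 without DMSO replicate 1), a polarity protein gene, fell. Without DMSO replicate 1 the list had 7 higher and 11 lower genes, where 37% of all tested genes were higher and 37% lower.

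The cofactors VGLL4, which competes with YAP for TEAD, and VGLL3 had lower transcripts. Vgll4 fell to 51.0 ± 4.49 CPM with iBRD9, against 68.1 ± 8.56 CPM with DMSO (log2 fold change -0.42, edgeR adjusted p = 0.00753), and Vgll3 by 0.49 on the log2 scale. Vgll1 and Vgll2 were not tested, with 0 and 0.0141 CPM for Vgll1 and no count for Vgll2 in any library (0).

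**Figure D3:**
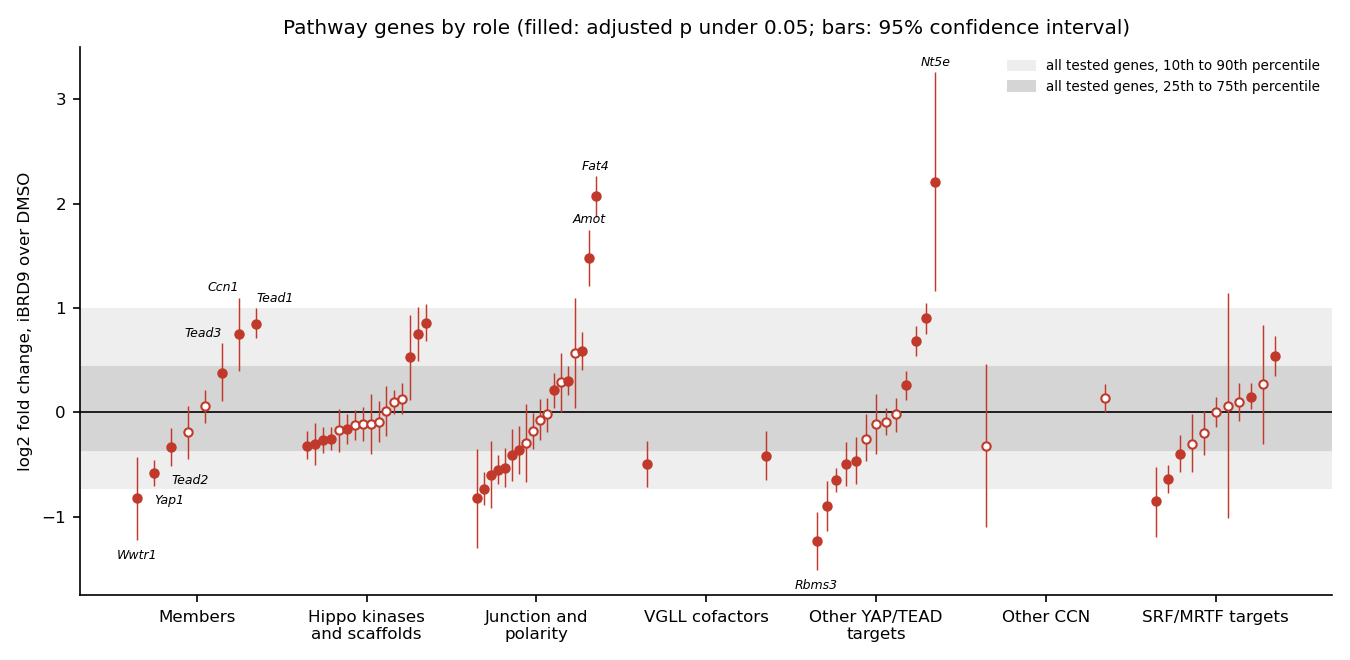
Log2 fold changes of iBRD9 over DMSO for each tested gene of the members and of 6 lists of related genes, with 95% confidence intervals. Filled points passed the test, and the shaded bands give the spread of all tested genes (25th to 75th percentile -0.36 to 0.44, 10th to 90th percentile -0.73 to 0.99). Fat4, Amot and Nt5e lie above the wider band, and Rbms3, Gadd45a, Acta2, Patj and the member Wwtr1 lie below it, with Amotl1 at its lower edge.

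Other YAP and TEAD targets did not follow Ccn1 as a group. A list of 18 further genes came from a published signature of human tumours and also holds Lats2 and Ptpn14 of the lists already described. Of the 18, 13 were tested, 4 rose, 5 fell and 4 did not pass (median -0.11). The shares of all tested genes that rose and fell, 29.8% and 30.9%, show a similar split. Arhgef17, a guanine nucleotide exchange factor gene, had 149.5, 159.7 and 165 CPM with iBRD9 and 90.4, 81.8 and 82.3 CPM with DMSO (log2 fold change 0.90, SE 0.066). Crim1, a transmembrane BMP antagonist gene, rose by 0.68 and Asap1, which acts on Arf GTPases, by 0.26.

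The RNA-binding protein gene Rbms3 had 9.32, 9.61 and 8.19 CPM with iBRD9 and 17.9, 23.1 and 22.6 CPM with DMSO (log2 fold change -1.23, SE 0.12, edgeR adjusted p = 8.31e-05). Gadd45a, a growth arrest gene, fell by 0.90 on the log2 scale, and Dock5, a Rac activator gene, by 0.65. Nt5e, the gene of the ectonucleotidase CD73, was named after its values were seen. It rose at a very low level, 0.802 CPM with iBRD9 and 0.166 CPM with DMSO (2.21, SE 0.46). Axl, a receptor kinase gene often used as a YAP target, stood at 154 and 163 CPM and did not pass (-0.09, adjusted p = 0.214). Without DMSO replicate 1, 9 genes of the list fell and 4 rose, where 37% of all tested genes fell and 37% rose.

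The relatives of Ccn1 and Ccn2 did not pass: of 4 other CCN genes, 2 were tested and none was called (0 by edgeR, DESeq2 and limma-voom, and 1 at an unadjusted p under 0.05). For 1 of them a call as higher appeared without DMSO replicate 1, with library size alone or with a filter at 1 CPM. Ccn4 had the highest counts of them, 69.5 CPM with iBRD9 and 63.2 CPM with DMSO (log2 fold change 0.14, edgeR adjusted p = 0.0686). Genes driven by SRF and its MRTF coactivators overlap with YAP targets in many cells. A list of 15 genes holds such targets together with the regulator genes Srf, Mrtfa and Mrtfb themselves. Of the 15, 11 were tested, 2 rose, 3 fell and 6 did not pass (median 0), where 29.8% of all tested genes rose and 30.9% fell. Vcl, the gene of the focal adhesion protein vinculin, had a log2 fold change of 0.54 and Mrtfb one of 0.15. The call of Mrtfb (edgeR adjusted p = 0.0366) was lost with no filter on low counts and with the replicate number as a block. It was also lost without any 1 library other than DMSO replicate 1, and its adjusted p reached 0.149. The actin and actin-binding genes Acta2 (-0.85), Tpm1 (-0.64) and Flna (-0.40) fell. Without DMSO replicate 1, 5 genes of the list fell, as did 37% of all tested genes.

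DMSO replicate 1 lay on the iBRD9 side of the other DMSO libraries for 6 of the 8 tested members, and for 74.5% of all tested genes. Tead3 and Ccn1 were the exceptions, for which it was farther from iBRD9 than DMSO replicates 2 and 3. Both distances start from the mean of DMSO replicates 2 and 3, so part of such a share is built into the measure. No member's direction changed under any alternative that was run. Yap1, Wwtr1, Tead1, Tead2 and Ccn1 passed in all 13 other fits, Tead3 in 10, Amotl2 in 1 and Tead4 in 0.

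**Figure D4:**
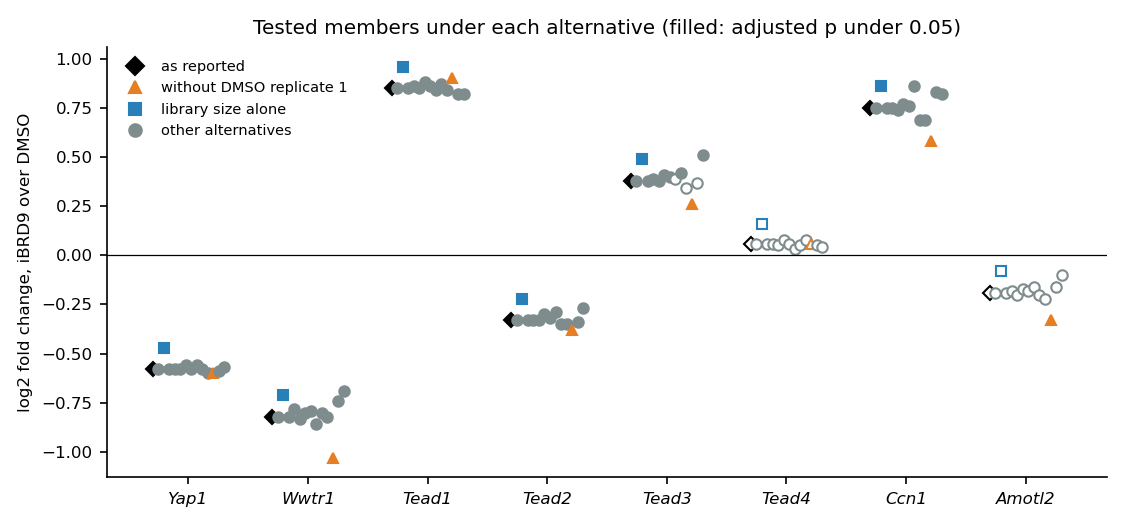
Log2 fold change of iBRD9 over DMSO for each tested member as reported (diamond) and in 13 other fits, filled where the adjusted p is under 0.05. Without DMSO replicate 1 (triangles) the values of Wwtr1 and Amotl2 are lower, at -1.03 and -0.33, and those of Tead3 and Ccn1 are nearer to 0, at 0.26 and 0.58.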

How the data were processed

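RNA-seq libraries of Melb-a cells were made from poly(A) RNA with random hexamer priming, per the labels' protocols, with 3 samples per treatment. The authors deposited whole-number read counts, raw, for each Ensembl gene ID. The submitters' processing notes name GRCm39, CASAVA 1.8.2 and Bowtie2 2.4.5. For the counting program, annotation release and strand setting, nothing is given in these sources. The labels do not say that the samples are separate cultures beyond calling them independent, so p-values measure the spread between these samples.

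The members and gene lists were chosen with earlier results of these data known. Symbols and gene lengths came from GENCODE M21, which is of an older build, so no coordinates of that annotation are given. Without stated strand, reads of overlapping genes cannot be told apart: exons of Yap1, Tead2 and Ccn2 overlap exons of an opposite gene by 116, 13 and 665 bases, and those genes had at most 31 counts in a library. Genes were filtered with filterByExpr at a minimum count of 10, which kept 13602. TMM scaling (trimmed mean of M values) was applied, and genes were tested with the quasi-likelihood F-test of edgeR 4.0.16 (R 4.3.3, robust, treatment as the sole term), two-sided, with Benjamini-Hochberg adjustment over all tested genes. Levels are TMM-scaled CPM. Standard errors are the log2 fold change over the root of F. Per-length levels divide CPM by the union of exons or of coding exons. Likeness and the place of DMSO replicate 1 used log2(CPM + 0.5).

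Genes are named by a rule: all members, and per list the 3 called genes that rose most and the 3 that fell most, if their mean log2 CPM was 1 or more, while Lats2, Axl, Nt5e, Patj, Vgll1, Vgll2, Ccn4 and the markers of cell types were named after their values were seen, and 1 gene that the rule names is not reported here. Symbols marked as predicted models were left out of the likeness search. On simulated counts for the comparison of iBRD9 with DMSO over 13412 genes, 92 of 97 genes changed by 2-fold and 84 of 99 changed by 1.5-fold were recovered, and 3.83% of calls were false. The simulation gave every gene the same dispersion, changed few genes and had no outlying library. In the data 60.7% of tested genes were called and DMSO replicate 1 stood apart, so these rates may not hold there. No pair of libraries was a duplicate, with a chi-square per degree of freedom of 1.93 to 37.5. The alternatives were DESeq2 1.42.0, limma-voom (limma 3.58.1), other scalings and filters, the replicate number as a block, a stricter threshold and leaving out each library. Figures were drawn with matplotlib 3.10.9.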

Additional observations from a re-analysis of the deposited data

How the results depend on the processing

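Over all genes, 4057 were called higher and 4205 lower, and scaling by library size alone gave 4999 and 3385, as the median change over all tested genes was then 0.113 on the log2 scale, against 0.007. Leaving out 1 library gave 3235 to 5159 higher and 3558 to 5152 lower calls, with the highest counts without DMSO replicate 1. Members called higher numbered 2 to 3 and members called lower 3 to 4 when 1 library was left out, and 2 and 3 at an adjusted p under 0.01, where Tead3 was not called.

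The labels do not say that replicate numbers pair samples, so the numbers were not taken as pairs. Samples with the same number correlated at 0.12, 0.09 and 0.03 in their deviations from the group means, and those with different numbers at -0.12 to 0.04. Replicate 1 differed most in both groups, with a chi-square per degree of freedom of 6.33 to each other iBRD9 library, and of 29.2 and 37.5 to the other DMSO libraries. With the replicate block, 3920 genes were called higher and 4017 lower, and 3 members were higher and 3 lower. Among the members, 107 of the values under an alternative kept their direction and their side of the threshold, 4 kept the direction but were no longer called, all of Tead3, and 1 was newly called, that of Amotl2 without DMSO replicate 1. For the other named genes 331 kept both, and 19 were no longer called. No value changed its sign (0). Why single libraries moved these values was not tested. Low counts limit what can be said of Ccn2 and Ankrd1, with 25 and 0 counts with iBRD9 and 16 and 1 with DMSO.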
